A study of Homo sapiens with 8 samples.

Results

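HLA class I molecules carry peptides from inside the cell to its surface, and the genes of this presentation pathway were measured in MDA-MB-157 cells at 2 glucose concentrations. Of the 21059 genes of the table, 9 were chosen by symbol: the heavy chains HLA-B, HLA-C, HLA-E and HLA-F, the shared light chain B2M, the peptide transporter subunits TAP1 and TAP2, the loading chaperone TAPBP and the transactivator NLRC5. MDA-MB-157 is an established human breast cancer cell line, labelled ER negative. Flasks were held for 48 h in 5 mM glucose (low glucose, n = 4 libraries) or in 25 mM glucose (high glucose, n = 4 libraries), in medium without serum by the study's methods. The labels name no engineered allele and no osmotic control in either group, so the effects of glucose and of osmolarity cannot be told apart. Nothing states that the 4 replicates of a group were grown from separate cultures, so p-values measure the spread between these libraries, which may be technical.

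In cells, the proteasome cuts proteins into peptides, and its interferon-inducible form, the immunoproteasome, favors peptides that fit class I grooves. TAP1 and TAP2 form the pump that moves peptides into the endoplasmic reticulum, where TAPBP (tapasin) holds an empty class I molecule next to the pump. ERAP1 and ERAP2 trim the peptides, and a heavy chain reaches the surface stably only with B2M bound. Classical heavy chains such as HLA-B and HLA-C show peptides to cytotoxic T cells, while HLA-E presents leader peptides of other class I chains to inhibitory receptors of natural killer cells. NLRC5 has no DNA-binding domain of its own and acts on class I promoters through the SXY module, which is bound by the RFX complex, CREB or ATF proteins and NF-Y. Interferon-stimulated response elements (ISRE) and kappaB sites lie next to this module in many of these promoters.

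The promoters of 7 of the 9 members were matched by symbol in RefSeq (GRCh38.p14). Each was searched on both strands over the 250 bases before the annotated start for the ISRE core GAAANNGAA, the X2 letters of the SXY module (TGACGC or TGACGT), the Y box ATTGG, and the kappaB letters GGGGNNTCC. Over all 35116 promoters of that table, 6.88% held the ISRE core, 14.0% the X2 letters, 32.0% the Y box and 6.90% the kappaB letters in the same window. The heavy chain promoters are shown first because NLRC5 acts on class I promoters through the SXY module, though not each of them held both its X2 and Y letters. The others are shown because they belong to the light chain and to the loading genes described below. Capitals mark the matches, and a match is a description of the letters, not of a bound site. The strands run 5′ to 3′ toward each gene.
HLA-B promoter, chr6:31357219-31357359, minus strand, from 180 to 40 bases before the start: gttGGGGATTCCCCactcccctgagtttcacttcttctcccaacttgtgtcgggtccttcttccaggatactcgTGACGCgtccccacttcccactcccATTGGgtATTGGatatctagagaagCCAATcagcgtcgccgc
HLA-C promoter, chr6:31272132-31272272, minus strand, from 180 to 40 bases before the start: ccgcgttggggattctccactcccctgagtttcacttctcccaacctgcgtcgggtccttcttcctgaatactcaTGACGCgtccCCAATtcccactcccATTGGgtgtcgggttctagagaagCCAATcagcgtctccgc
HLA-F promoter, chr6:29723254-29723394, plus strand, from 180 to 40 bases before the start: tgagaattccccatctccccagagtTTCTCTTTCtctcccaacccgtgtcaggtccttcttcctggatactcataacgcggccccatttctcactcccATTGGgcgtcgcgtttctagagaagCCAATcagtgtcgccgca
B2M promoter, chr15:44711337-44711477, plus strand, from 180 to 40 bases before the start: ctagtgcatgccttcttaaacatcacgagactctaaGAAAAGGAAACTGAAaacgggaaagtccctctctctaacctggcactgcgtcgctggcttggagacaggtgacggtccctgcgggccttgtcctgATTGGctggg
TAP1 promoter, chr6:32853744-32853884, minus strand, from 180 to 40 bases before the start: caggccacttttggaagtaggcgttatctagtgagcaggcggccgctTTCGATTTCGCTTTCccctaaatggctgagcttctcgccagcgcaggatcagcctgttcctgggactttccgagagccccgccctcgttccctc
TAP2 promoter, chr6:32838764-32838919, minus strand, from 180 to 25 bases before the start: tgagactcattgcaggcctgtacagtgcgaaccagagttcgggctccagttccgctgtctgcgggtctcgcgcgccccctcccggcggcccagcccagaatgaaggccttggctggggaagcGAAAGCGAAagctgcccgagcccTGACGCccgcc
TAPBP promoter, chr6:33314079-33314138, minus strand, from 60 to 1 bases before the start: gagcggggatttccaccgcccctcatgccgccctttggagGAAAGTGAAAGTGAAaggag

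The HLA-B and HLA-C promoters held the same X2 letters, 106 and 105 bases before the start, with a Y box 81 and 80 bases before it. HLA-B alone of the heavy chains shown held the kappaB letters searched, and HLA-F alone of them held the ISRE core letters searched. Variants of these letters were not searched, so a promoter without a match may still hold such an element. HLA-F had a Y box 82 bases before the start and no match to the X2 letters searched. TAP1 (the first of its 2 RefSeq entries), TAPBP and B2M each held a pair of overlapping ISRE cores. TAP2 held 1 ISRE core and 1 match to the X2 letters. Outside the stretches printed, TAPBP held kappaB letters 152 bases, HLA-C a Y box 192 bases and TAP1 a Y box 249 bases before the start.

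Of the 8 members beside NLRC5, 7 lie in the major histocompatibility complex on chromosome 6, and B2M lies on chromosome 15. In the GRCh37 annotation used here for positions and lengths, which is another build than the promoter coordinates above, HLA-F spans chr6:29690552-29706305, HLA-E chr6:30457286-30461971, HLA-C chr6:31236526-31239907 and HLA-B chr6:31321649-31334844. TAP2 spans chr6:32789610-32806516, TAP1 chr6:32812986-32821593 and TAPBP chr6:33267471-33282061. NLRC5 spans chr16:57023397-57117443 and B2M chr15:45003556-45011049. All 9 are annotated as protein-coding.

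Values were deposited as normalized CPM (read counts scaled to 1000000), and the step between low values put the counted reads of a library at about 9721649 to 12482542. The least count read here as detected, 3 reads, was then worth 0.212 to 0.267 CPM. High glucose replicate 1 stood apart from the other high glucose libraries along transcript length. The deviation of a gene in a library was taken from the mean of the other 3 libraries of the same group. Its Spearman correlation with transcript length was -0.65 in high glucose replicate 1 and 0.248 to 0.466 in the other 3. In the low glucose libraries it was -0.133 to 0.0562 (11223 genes of at least 5 CPM, which share their libraries and are not independent). Replicate 1 is part of the mean set against the other 3, and none of these values is a shift against low glucose. ESR1, the estrogen receptor, was at 0.121 ± 0.0811 CPM in low glucose and 0.0598 ± 0.0406 CPM in high glucose (SD, n = 4 each). Of 13 leukocyte markers, 4 were matched, and their summed level was 10.7 to 14.3 CPM in low glucose and 13.3 to 18.0 CPM in high glucose, most of it CD68. PTPRC and LYZ among them were under 1 CPM in every library. CD14, a monocyte marker, was called higher, from 1.25 ± 0.337 to 4.24 ± 1.33 CPM (log2 change 1.20, limma adjusted p = 0.00252), and its groups did not overlap. The fibroblast and endothelial list, all 6 of its genes matched, summed to 2657 to 2673 CPM in low glucose and 1214 to 1275 CPM in high glucose, most of it PDGFRB, LUM and DCN. The part of these lists in the results on class I genes was not tested.

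At low glucose the members spanned a wide range of levels. Divided by the length of the canonical transcript in kilobases, HLA-B was at 396 ± 7.77 CPM per kilobase, HLA-C at 217 ± 3.69, HLA-E at 101 ± 3.82, TAPBP at 40.7 ± 1.40, TAP1 at 26.3 ± 0.679, HLA-F at 13.7 ± 0.558, TAP2 at 7.13 ± 0.185 and NLRC5 at 3.43 ± 0.298 (SD, n = 4). The ranges of neighbors in this order did not overlap at low glucose. At high glucose HLA-B (324 ± 51.5 CPM per kilobase), HLA-C (201 ± 24.9) and HLA-E (141 ± 11.8) kept the first 3 places. TAP1 (26.1 ± 3.15) and TAPBP (24.6 ± 0.784) then overlapped, as did HLA-F (10.7 ± 2.02) and TAP2 (8.45 ± 0.426). B2M was listed last in both groups.

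B2M, the light chain on which every classical class I molecule depends, was listed under the level of 3 reads in all 8 libraries. It was listed at 0.0834, 0, 0 and 0.0728 CPM in low glucose replicates 1 to 4 and at 0.0706, 0.159, 0.165 and 0.0889 CPM in high glucose replicates 1 to 4, about 0 to 2 reads each. No fold change can be read from such values, and the difference was not detectable at this depth. None of its 31-base words was shared with another transcript of the GRCh37 annotation, and no second entry of that symbol was in the table, but the reference used by the authors was not examined.

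The genes on either side of B2M were then read in chromosome order, a look chosen after its values were seen. EIF3J, a translation initiation factor subunit 148 kb away in the GRCh37 annotation, was at 69.2 to 101 CPM over the 8 libraries, and CTDSPL2 beyond it was at 43.6 to 65.0 CPM. SPG11 came next toward B2M and was at 0.364 to 0.990 CPM. PATL2, the gene adjacent to B2M on that side, and TRIM69, the next gene on the other, were both listed at 0 in every library. SORD, 304 kb from B2M and the next protein-coding gene of the table, was at 14.5 to 18.3 CPM. B2M thus stood within a run of 4 consecutive protein-coding genes of the table, SPG11 to TRIM69, that were all listed under 1 CPM in both groups. From this table, little RNA from these genes and reads that were not assigned to them cannot be told apart, so the values of B2M are not read as its expression level.

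**Figure D1:**
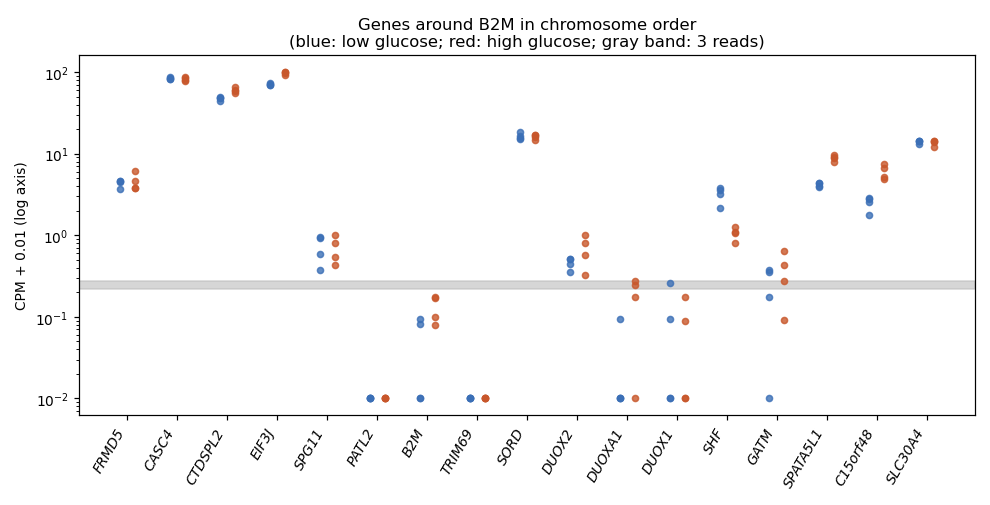
Level of each protein-coding gene around B2M in chromosome order, as CPM + 0.01 on a log axis, with 1 point per library (blue, low glucose; red, high glucose). SPG11, PATL2, B2M and TRIM69 lie together under 1 CPM in all 8 libraries, B2M under the gray band that marks 3 reads, while EIF3J reaches 69.2 to 101 CPM on one side and SORD 14.5 to 18.3 CPM on the other.

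The test between glucose concentrations was passed by 6 of the 9 members (limma on log2(CPM + 1), Benjamini-Hochberg adjusted over all 21059 genes, called at an adjusted p under 0.05), against 46.8% of all genes tested. HLA-E and TAP2 were called higher in high glucose, against a background of 22.0% of genes called higher. HLA-B, HLA-F, TAPBP and NLRC5 were called lower, against 24.8% of genes. HLA-C, TAP1 and B2M were not called. The shares of all genes count genes too low to be called, 856 of them at 0 in every library. With the fit limited to the 11297 genes of at least 5 CPM, 8120 were called. Of the 8 members at that level 6 were called, so their count lies near the share there. No share by direction is given at that level, here or for the lists below. The number called lower was 5 without high glucose replicate 1, where HLA-C joined, and 2 without any 1 of the other 7 libraries, where HLA-B and HLA-F were lost. In bulk RNA from a flask, fewer expressing cells and less RNA per cell cannot be told apart. Over the 8 members above the level of 3 reads the median log2 change was -0.21, beside -0.01 over all genes. The 2 groups did not overlap for 4 of these 8 members, against 65.0% of the 11297 genes of at least 5 CPM.

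**Figure D2:**
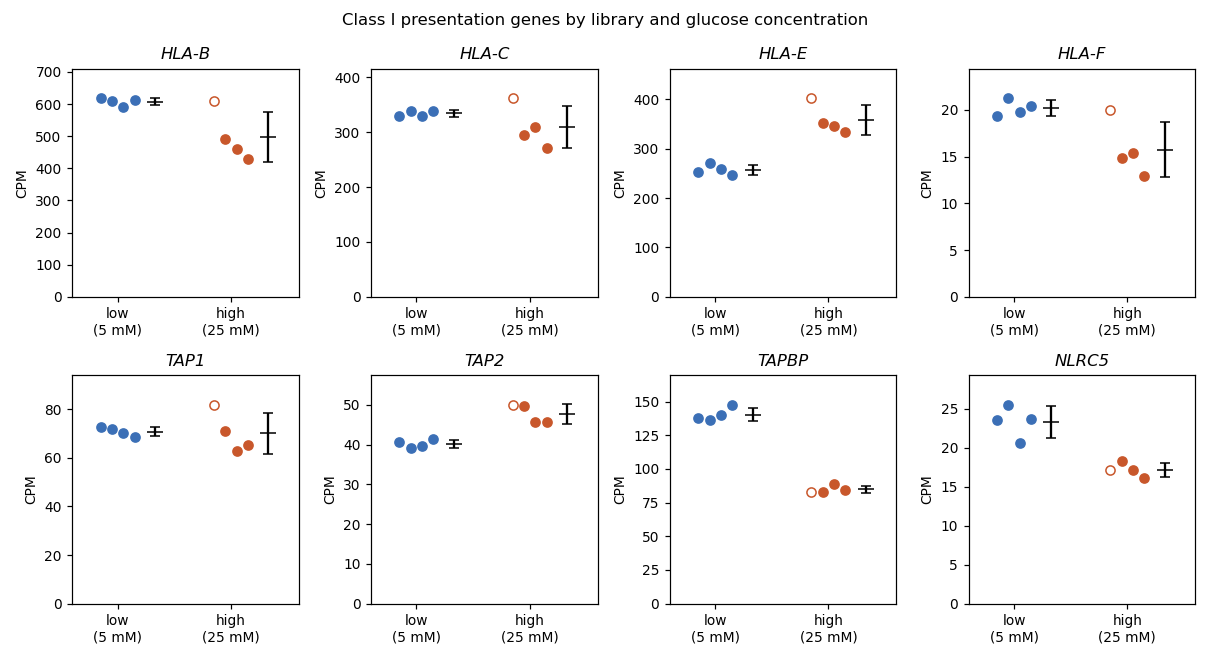
CPM of the 8 members above 3 reads in each library (points; the open point is high glucose replicate 1), with the mean and SD of each group of 4 at its right. HLA-E and TAP2 lie higher and TAPBP and NLRC5 lower in every high glucose library, while for HLA-B, HLA-C, HLA-F and TAP1 the open point lies within or above the low glucose points.

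HLA-E was the 1 heavy chain of the 4 called higher. It was at 253, 270, 259 and 248 CPM in low glucose replicates 1 to 4 and at 402, 352, 345 and 334 CPM in high glucose replicates 1 to 4. All 4 high glucose libraries lay above all 4 low glucose libraries. The mean rose from 257 ± 9.73 to 359 ± 30.0 CPM, which is 39.3% higher, with a log2 change of 0.47 ± 0.061 (SE) and a limma adjusted p of 0.000609. Without high glucose replicate 1 the log2 change was 0.42.

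HLA-B, the most abundant member, was at 618, 609, 591 and 613 CPM in low glucose and at 610, 492, 460 and 429 CPM in high glucose. High glucose replicate 1 lay within the low glucose range and the other 3 below it. The mean fell from 608 ± 11.9 to 497 ± 79.1 CPM, with a log2 change of -0.30 ± 0.103 (SE) and a limma adjusted p of 0.0483. This call was close to the threshold. It was lost with a pseudocount of 0.1, without the variance trend, at equal totals and under median-of-ratios scaling (adjusted p of 0.0506 to 0.0611), and when any 1 of the 7 libraries other than high glucose replicate 1 was left out (0.0826 to 0.115). Without high glucose replicate 1 the log2 change was -0.40 with a limma adjusted p of 0.00078. After correction of every library for transcript length it was -0.24 with an adjusted p of 0.00127. The corrected fit also left out genes under 1 CPM. With that filter alone the log2 change stayed at -0.30 and the limma adjusted p was 0.00703.

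HLA-F, a less abundant heavy chain that can reach the surface without peptide, was at 19.3, 21.2, 19.8 and 20.4 CPM in low glucose and at 20.0, 14.8, 15.4 and 12.9 CPM in high glucose, where again replicate 1 alone lay among the low glucose values. The log2 change was -0.35 ± 0.119 (SE) with a limma adjusted p of 0.0444. The call was lost under quantile normalization and median-of-ratios scaling (adjusted p of 0.0714 and 0.0535), and when any 1 of the other 7 libraries was left out (0.0741 to 0.103). Without high glucose replicate 1 itself the log2 change was -0.47 (adjusted p = 0.00166). HLA-F shares exon bases with the antisense transcript HLA-F-AS1 over 17.4% of its length, and whether the counting used strand is not given in the sources used here.

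HLA-C was at 330, 339, 329 and 339 CPM in low glucose and at 362, 296, 309 and 271 CPM in high glucose. Its high glucose libraries lay on both sides of the low glucose range. The log2 change was -0.12 (95% interval -0.31 to 0.07, limma adjusted p = 0.287). Without high glucose replicate 1 it became -0.20 with an adjusted p of 0.0128. Its transcript is 1542 bases long, close to HLA-B (1536) and HLA-F (1480), whereas that of HLA-E has 2548 bases. High glucose replicate 1 was the library with higher values for short transcripts, and the part of length in the values of HLA-B, HLA-C and HLA-F was not tested beyond the removal of the trend given here, under which HLA-C was at -0.06 (adjusted p = 0.273).

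**Figure D3:**
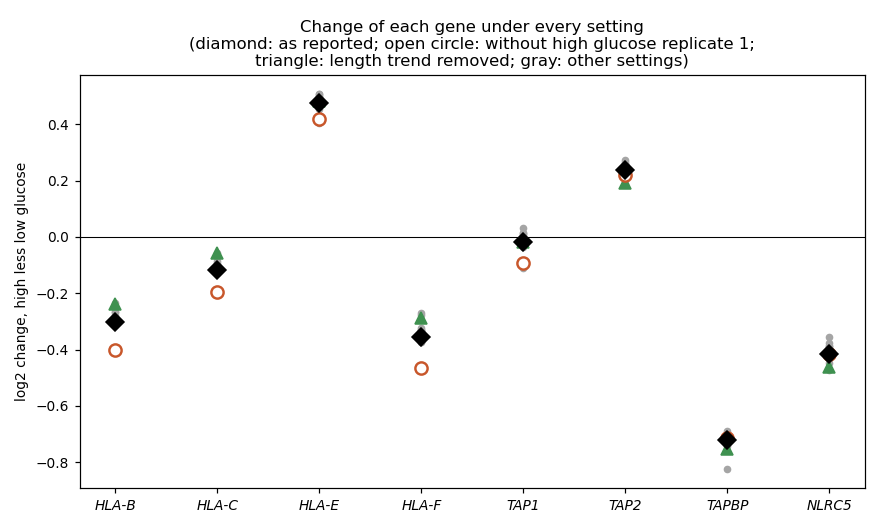
Log2 change of each member above 3 reads (high less low glucose) under every setting: black diamonds as reported, open circles without high glucose replicate 1, green triangles with the length trend removed and gray points for all other settings. HLA-B, HLA-C and HLA-F move down without that library (to -0.40, -0.20 and -0.47). These genes and HLA-E, TAP2, TAPBP and NLRC5 keep their sign in every setting, and TAP1 straddles 0.

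The heavy chain reads were also set against each other within each library, which leaves out any scaling between libraries. Of the summed CPM per kilobase of HLA-B, HLA-C, HLA-E and HLA-F, HLA-B held 53.8 to 55.2% in low glucose and 46.3 to 49.4% in high glucose. HLA-E held 13.3 to 14.4% in low glucose and 19.7 to 22.1% in high glucose. Neither pair of ranges overlapped, and high glucose replicate 1 lay with the other high glucose libraries on this measure. HLA-C kept 29.8 ± 0.330% and 29.7 ± 0.913% (SD, n = 4 each). HLA-F held 1.88 ± 0.0634% and 1.57 ± 0.0945%. These shares were chosen after the values were seen, so the p-values of an exact permutation test on them are not given.

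**Figure D4:**
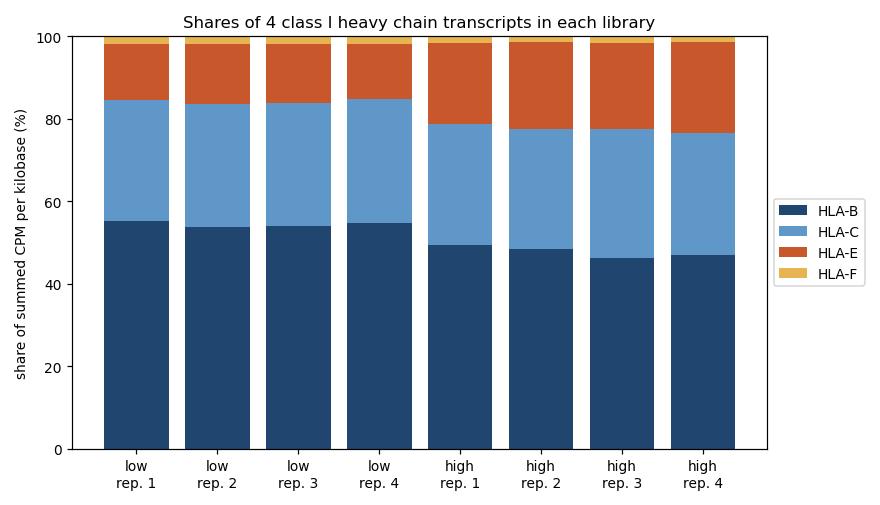
Share of each of 4 heavy chain transcripts in their summed CPM per kilobase (vertical axis, %) in each library (horizontal axis, 4 low and 4 high glucose). HLA-E takes 13.3 to 14.4% of each low glucose bar and 19.7 to 22.1% of each high glucose bar, mostly in place of HLA-B.

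Heavy chains share sequence, so their reads can be exchanged by the counting. Of the 31-base words of HLA-B, 10.7% occur in HLA-C transcripts of the reference, and 15.5% in any other gene. The share in any other gene was 19.6% for HLA-C, 12.0% for HLA-E and 8.69% for HLA-F.

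The genes of the loading step split in 3 directions. TAPBP was at 138, 137, 140 and 147 CPM in low glucose and at 83.2, 82.7, 88.7 and 84.6 CPM in high glucose. The groups were far apart, and high glucose replicate 1 lay among its own group. The mean fell from 140 ± 4.83 to 84.8 ± 2.70 CPM, which is 39.6% lower, with a log2 change of -0.72 ± 0.032 (SE) and a limma adjusted p of 5.03e-06. The log2 change lay between -0.74 and -0.70 when any 1 library was left out. An annotated antisense transcript covers 40.5% of the TAPBP exon bases, and without strand the reads of the pair could not be separated.

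TAP2 was at 40.6, 39.1, 39.7 and 41.5 CPM in low glucose and at 49.9, 49.6, 45.6 and 45.6 CPM in high glucose. The lowest high glucose library lay above the highest low glucose library. The mean rose by 18.6%, from 40.2 ± 1.04 to 47.7 ± 2.40 CPM (log2 change 0.24 ± 0.039 SE, limma adjusted p = 0.00198). A read-through transcript on the same strand shares 35.9% of the TAP2 exon bases.

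TAP1, its partner in the pump, was at 72.5, 71.9, 70.2 and 68.4 CPM in low glucose and at 81.6, 71.1, 62.6 and 65.1 CPM in high glucose. The high glucose libraries lay above, within and below the low glucose range. The log2 change was -0.02 with a 95% interval of -0.21 to 0.17 and a limma adjusted p of 0.898, and its sign turned with the scaling (0.01 under median-of-ratios and equal totals, -0.11 under quantile normalization).

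NLRC5, the transactivator, was at 23.5, 25.4, 20.6 and 23.7 CPM in low glucose and at 17.1, 18.3, 17.2 and 16.1 CPM in high glucose. The 2 groups did not overlap. The mean fell by 26.3%, from 23.3 ± 2.02 to 17.2 ± 0.919 CPM (log2 change -0.42 ± 0.069 SE, limma adjusted p = 0.00207). Its transcript is the longest of the members, with 6781 bases in 49 exons, and none of its 31-base words occurs in another gene. With the length trend removed the log2 change was -0.46.

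Whether members differed in their response was tested on the difference of their log2(CPM + 1) within each library, by an exact two-sided permutation test over the 70 assignments of 4 and 4 libraries, whose smallest possible p is 0.0286. The 5 pairs of the original 8 that hold B2M have no meaning, since B2M lay under 3 reads, so all 28 pairs of the other 8 members were compared, a choice made after the values were seen. The difference passed an adjusted p of 0.05 (Benjamini-Hochberg over the 28) in 24 pairs, each at the smallest p the design allows, with an adjusted p of 0.0333. The 28 pairs reuse the same 8 genes and are not independent. The share of such pairs among other genes was not computed. Since the groups did not overlap for 65.0% of genes of at least 5 CPM, the count is not read as particular to the members. HLA-B less HLA-E changed by -0.77 ± 0.062 (SE) and HLA-C less HLA-E by -0.59 ± 0.046 on the log2 scale. HLA-B less HLA-C changed by -0.18 ± 0.043. Within the loading step, TAP1 less TAP2 changed by -0.26 ± 0.064, TAP1 less TAPBP by 0.70 ± 0.110 and TAP2 less TAPBP by 0.96 ± 0.057.

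The 4 pairs that did not pass were HLA-B with HLA-F (0.05 ± 0.047 SE), HLA-B with NLRC5 (0.12 ± 0.116), HLA-F with NLRC5 (0.06 ± 0.129) and HLA-C with TAP1 (-0.10 ± 0.063), with adjusted p of 0.192 to 0.743 from the exact permutation test. HLA-B, HLA-F and NLRC5 were all called lower in the fit over all genes, and no difference between their responses was detectable among these libraries.

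**Figure D5:**
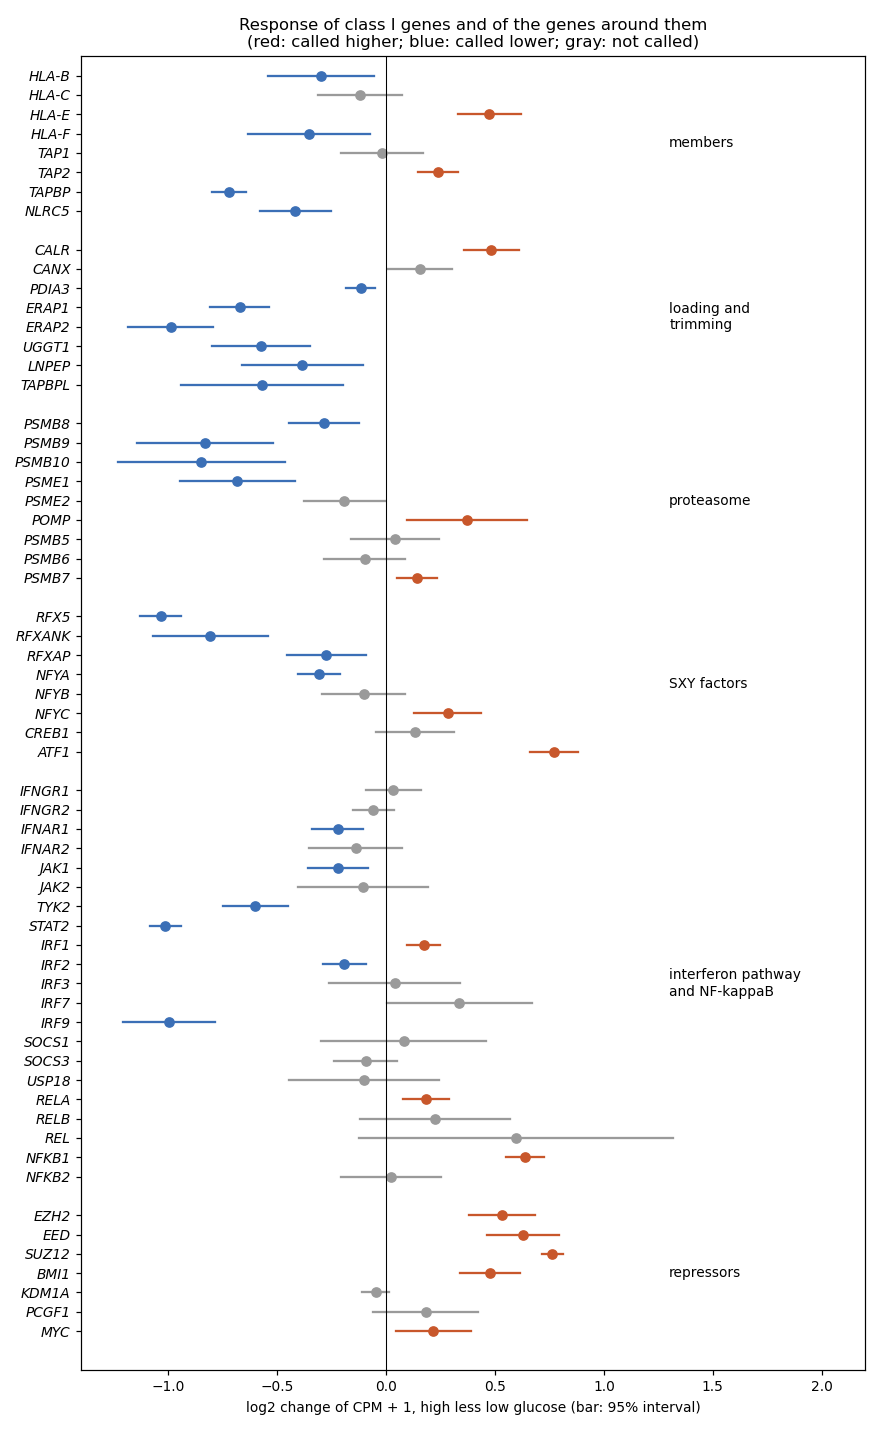
Log2 change of CPM + 1 (high less low glucose, horizontal axis) with its 95% interval for the 8 members above 3 reads and 53 genes of the listed pathway groups; red points were called higher, blue lower and gray not called. Loading and trimming genes, immunoproteasome subunits, RFX subunits, STAT2 and IRF9 lie mostly to the left of 0, and CALR, ATF1, NFKB1 and the repressors EZH2, EED, SUZ12 and BMI1 to the right.

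Of the other genes that load and trim peptides, 6 of 8 were called lower and 1 higher, beside 24.8% and 22.0% of all genes, and the median log2 change of the list was -0.48. ERAP2 fell from 66.9 ± 3.50 to 33.3 ± 3.62 CPM (log2 change -0.99, limma adjusted p = 7.27e-05), and ERAP1 from 37.8 ± 1.18 to 23.4 ± 1.89 CPM (-0.67, adjusted p = 8.48e-05). UGGT1, which checks the folding of glycoproteins and returns poorly loaded class I chains, fell by 0.57 on the log2 scale. CALR (calreticulin), a chaperone of the loading complex and of many other glycoproteins, rose from 1653 ± 51.8 to 2313 ± 107 CPM (0.48, adjusted p = 0.000307).

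The immunoproteasome list held 4 genes called lower and 1 called higher of 6, beside the same shares of 24.8% and 22.0%, with a median of -0.48. PSMB9 fell from 16.8 ± 0.988 to 9.13 ± 1.82 CPM (log2 change -0.83, limma adjusted p = 0.00171) and PSMB10 from 11.3 ± 1.08 to 5.95 ± 1.55 CPM (-0.85, adjusted p = 0.00419). PSMB8, the third catalytic subunit, fell less, from 59.3 ± 2.30 to 48.6 ± 4.86 CPM (-0.29, adjusted p = 0.0119). PSME1, a subunit of the proteasome activator, fell by 0.68 on the log2 scale. Of the 3 subunits that they replace, PSMB7 was called higher at 0.14 (0.02 and not called under quantile normalization, and not called without low glucose replicate 3 or 4, at an adjusted p of 0.0545 and 0.0567), while PSMB5 (0.04) and PSMB6 (-0.10) were not called. PSMB5 was called higher with the length trend removed (0.124, adjusted p = 0.0225), and its sign turned under quantile normalization (-0.09) and without high glucose replicate 1 (-0.05), and without that library PSMB6 was called lower (-0.18).

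Among the 8 factors of the SXY module through which NLRC5 acts, 4 were called lower and 2 higher, beside 24.8% and 22.0% of all genes. RFX5, the DNA-binding subunit of the RFX complex, fell from 68.9 ± 1.19 to 33.1 ± 1.84 CPM (log2 change -1.04, limma adjusted p = 2.89e-06). RFXANK fell from 46.3 ± 0.874 to 26.3 ± 4.79 CPM (-0.81, adjusted p = 0.000889), and NFYA, a subunit of NF-Y, fell by 0.31 on the log2 scale. ATF1, which can occupy the X2 site, rose from 27.4 ± 0.996 to 47.5 ± 2.73 CPM (0.77, adjusted p = 1.76e-05). The list's median was -0.19.

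Of 17 matched genes of the interferon pathway, 7 were called lower and 1 higher, against the background of 24.8% and 22.0%, and 9 were not called. STAT2 and IRF9, which take part in ISRE binding after type I interferon, were both lower. STAT2 fell from 166 ± 5.21 to 81.5 ± 2.46 CPM (log2 change -1.01, limma adjusted p = 1.51e-06) and IRF9 from 19.6 ± 2.41 to 9.31 ± 0.656 CPM (-0.997, adjusted p = 0.000107). TYK2, a kinase of the type I interferon receptor, fell by 0.60 on the log2 scale. IRF1, a factor induced by interferon gamma, rose from 25.3 ± 0.838 to 28.6 ± 0.765 CPM (0.17, adjusted p = 0.00366).

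The NF-kappaB subunits, which bind kappaB sites, held 2 genes called higher and none lower of 5, beside 22.0% and 24.8% of all genes, so the count lies near the background. NFKB1 rose from 41.6 ± 1.70 to 65.3 ± 2.29 CPM (log2 change 0.64, limma adjusted p = 1.53e-05) and RELA by 0.18. Of 7 matched genes listed as repressors or chromatin regulators of class I genes, 5 were called higher and none lower, beside the same 22.0% and 24.8%, with a median of 0.48. SUZ12, EED and EZH2, the core of Polycomb repressive complex PRC2, rose by 0.76, 0.63 and 0.53, and BMI1, of the other Polycomb complex, by 0.48 on the log2 scale. SUZ12 went from 67.4 ± 1.59 to 115 ± 1.16 CPM.

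The members on chromosome 6 were set beside the 116 other protein-coding genes annotated between HLA-F and TAPBP (chr6:29690552-33282061, GRCh37). Of these, 38 were called lower (32.8%, against 24.8% of all genes) and 19 higher (16.4%, against 22.0%), and the median log2 change of the 92 genes of at least 1 CPM was -0.19, near that of the 8 members. That count includes PSMB8 and PSMB9. No test was made of this region against the rest of the genome.

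The genes whose profile over the 8 libraries was most like the median profile of the members, by the root mean square difference of log2(CPM + 1) less the low glucose mean, were SEC13 (0.0255), RETREG2 (0.0321), PLOD3 (0.0325), RCC1L (0.0330) and DHPS (0.0348), none of them on chromosome 6. Of the members, HLA-C lay nearest to that median profile (0.0343) and HLA-E (0.444) and TAPBP (0.416) farthest from it.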

How the data were processed

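RNA from MDA-MB-157 cells was sequenced on an Illumina HiSeq instrument, with 4 libraries per glucose concentration. The values used are CPM values (read counts scaled to 1000000) that the authors normalized by TMM in edgeR and deposited as 1 table of 21077 lines, of which 18 pseudoautosomal Y copies were left out. The submitters' processing notes name hg38 and edgeR. The counting tool and the use of strand are not given in the sources used here. Low values were whole multiples of 1 read in only 72.0 to 73.3% of cases, so reads were not recovered and no count test was run.

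Groups were taken from the treatment labels. All 21059 genes were fitted with limma 3.58.1 (R 4.3.3) on log2(CPM + 1), with a variance trend and Benjamini-Hochberg adjustment, and called at an adjusted p under 0.05. A fold change on this scale understates changes of low genes. The fit was tested on simulated data with known changes. The simulated data had the same dispersion in both groups and no length trend, so that test does not bear on calls near the threshold here. Lengths and positions came from GENCODE 44 lifted to GRCh37, in which 20839 gene IDs were matched, and promoters from the RefSeq table (GRCh38.p14). Exact permutation tests used scipy 1.17.1.

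The genes named are all 9 members, a few pathway genes named whatever their values, and in each of 12 lists around the pathway at most the 4 genes of at least 1 CPM with the smallest adjusted p, and the 5 genes most like the median of the members. Some of these genes are not reported here. The members and lists were chosen with earlier results of these data known. Chosen after seeing the values were the pairs without B2M, the heavy chain shares and the genes around B2M. Alternatives were other pseudocounts, filters, scalings, a length correction, a replicate block and each library left out.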

Additional observations from a re-analysis of the deposited data

How the results depend on the processing

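HLA-E, TAP2, TAPBP and NLRC5 kept their direction and their call under each of the 10 settings with all 8 libraries and each time 1 library was left out. The members called lower went from 4 to 2 under median-of-ratios scaling and 2 under the replicate block, and ranged from 2 to 5 when 1 library was left out. All called members ranged from 4 to 7, and members called higher stayed at 2. The HLA-B log2 change was -0.30 with a pseudocount of 0.1, with the replicate block and with no variance trend, -0.268 under median-of-ratios scaling and -0.276 at equal totals, none of them called. It ranged from -0.40 to -0.23 with 1 library left out, and was called only without high glucose replicate 1. HLA-F was not called under quantile normalization (-0.277), median-of-ratios scaling (-0.323) or the replicate block (-0.354), and ranged from -0.47 to -0.27. HLA-C ranged from -0.20 to -0.0584. TAP1 turned sign under median-of-ratios scaling (0.0124) and equal totals (0.00519), and ranged from -0.0941 to 0.0313, with 0.0313 and 0.0133 without high glucose replicates 3 and 4. CIITA, not called in any of them, turned sign under quantile normalization (0.0528) and without low glucose replicate 1 (0.0725) or high glucose replicates 3 (0.0141) and 4 (0.0377), ranging from -0.164 to 0.0725, and PSMB5 did under quantile normalization (-0.0875) and without high glucose replicate 1 (-0.0474), ranging from there to 0.0840. The cause was not tested.

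The 8 original pairs of members went from 6 past the threshold to 0 with a pseudocount of 0.1 or 0.5, and 5 of these 8 hold B2M. Of the 28 pairs without B2M, 20 to 24 passed. The median change of neighbors in the major histocompatibility complex was -0.124 at a minimum of 5 CPM, -0.138 under quantile normalization, -0.157 under median-of-ratios scaling, -0.165 at equal totals and -0.172 with the length trend removed, and ranged from -0.21 to -0.15 with 1 library left out. Genes called over the whole table ranged from 8120 to 9938 under settings with all libraries and from 8899 to 10156 with 1 left out, and list genes called from 46 to 62 and from 45 to 56.

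No pairing by replicate number was seen: the correlation of same-numbered deviations was 0.0692, -0.0280, 0.0136 and -0.0403. Between different numbers it was -0.136 to 0.0746. So few correlations cannot show that the libraries were unpaired. With the number as a block, 8921 genes and 4 members were called. The calls of HLA-H, MR1, CD1D and RELA were also lost with it. For the differences between members the block allows no p under 0.125. At this depth B2M lay under 3 reads, where no change could be read. Of the 11 matched class II genes, no change is read from those under 1 CPM in both groups.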

Other observations

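Ligands by which stressed cells engage natural killer cells stood beside the class I genes in the lists. Of 9 matched stress ligand genes, 3 were called higher in high glucose and none lower, beside 22.0% and 24.8% of all genes, so the count lies near the background. MICB rose from 8.86 ± 0.251 to 22.8 ± 1.93 CPM (SD, n = 4; log2 change 1.27, limma adjusted p = 7.40e-06), MICA from 29.1 ± 3.28 to 51.6 ± 3.78 CPM (0.81, adjusted p = 0.000233) and ULBP2 from 3.51 ± 0.379 to 6.11 ± 0.530 CPM (0.66, adjusted p = 0.000794). MICA and MICB lie in the major histocompatibility complex among the members. Of 9 inhibitory ligands and checkpoint genes, CD47 (0.30) and PVR (0.32) were called higher and CD276 (-0.23) lower, beside the same shares. VTCN1, named after its values were seen, also passed the test but lay under 3 reads in every library, so no direction is read from it. CD274, which encodes PD-L1, was at 0.102 ± 0.105 and 0.393 ± 0.271 CPM and was not called.

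Class II genes were mostly at very low levels, and 5 of 11 matched genes reached 1 CPM in either group. CIITA, the class II transactivator, was at 1.29 ± 0.459 and 1.21 ± 0.360 CPM and was not called. HLA-DMA fell from 4.22 ± 0.485 to 1.42 ± 0.266 CPM (log2 change -1.11, limma adjusted p = 0.000144). IFI30, a lysosomal thiol reductase that unfolds proteins for class II loading, rose from 132 ± 3.96 to 395 ± 54.4 CPM (1.57, adjusted p = 1.49e-05). Of 10 matched genes of class I trafficking and turnover, 5 were called higher and none lower, beside 22.0% and 24.8% of all genes. SPPL3, an intramembrane protease, rose from 51.6 ± 3.29 to 87.1 ± 3.48 CPM (0.75, adjusted p = 2.66e-05), and SUSD6, which takes part in the lysosomal turnover of class I molecules, rose by 0.59 on the log2 scale. TMEM127 (-0.08) and WWP2 (-0.01), of the same list and named after their values were seen, were not called. Among other class I-like heavy chains, MR1 (-0.28) and CD1D (-0.32) were called lower and HLA-H, a pseudogene at 1.02 and 1.87 CPM, higher (0.49). None of these 3 calls was firm. That of HLA-H was lost without low glucose replicate 1, 2 or 4 or high glucose replicate 1 or 2 (0.388 to 0.485). That of MR1 was lost under quantile normalization (-0.232), median-of-ratios scaling (-0.254) and without low glucose replicate 1 or 2 or high glucose replicate 3 (-0.273 to -0.251). That of CD1D was lost under quantile normalization (-0.219), at a minimum of 1 CPM (-0.316) and without low glucose replicate 1 or 3 or high glucose replicate 3 or 4 (-0.318 to -0.266).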
